A study of Danio rerio with 9 samples.

Results

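The comparison described here is that of zebrafish ventricles labelled mtor xu015/+ with ventricles of WT siblings, made across every gene with a name and a chromosome. Of 30628 genes in the table, 25907 had both, and 18884 of these passed the filter on low counts and were tested, within a fit of 21216 genes in all. Each group was sequenced as 3 libraries, so 6 of the 9 libraries of the study are compared. The fish were 6 months old, 5 ventricles were pooled per library, and reads were 50-bp pairs from an Illumina HiSeq instrument. The mtor xu015/+ fish are heterozygous for the xu015 allele of mtor and carry no other named allele or agent. The other group of the study, Tg(cmlc2:tfeb), in which the cardiomyocyte promoter cmlc2 drives tfeb, entered the fit to share in the estimate of the spread. It also entered the filter on low counts and the normalization. The same WT libraries serve as its controls. With only the 6 libraries compared, 18087 named and placed genes passed the filter. The methods give WT siblings of 6 months, whereas the WT columns carry a tag of 9M. Sex per pool and hour of collection are not given, and the methods name ventricles where the results name whole hearts. In pooled tissue, fewer cells of a type and less RNA per cell cannot be told apart.

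mTOR, the mechanistic target of rapamycin, is a kinase that joins signals from growth factors, amino acids and energy and sits in complexes at the lysosome and elsewhere. Its active complex promotes ribosome production and translation and restrains autophagy and lysosome formation, in part by holding the transcription factor Tfeb in the cytoplasm. The question addressed was how the ventricle differs in its transcripts when a single mtor allele is mutated.

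Library totals ranged from 35935580 to 45273885 counts. Cardiomyocyte genes were at like levels in both groups, with summed normalized counts of the 10 markers tested of 3156153 to 3348418 in WT and 3130769 to 3381696 in mtor xu015/+. Counts here are normalized to the mean library size, and levels are compared between libraries and not between genes. Transcripts of skin, of the atrium and of the stress response set single libraries apart, and the genes below were named after their values were seen.

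The first is skin. krt97, an epidermal keratin, had normalized counts of 9.42, 4.59 and 3.27 in WT and 704, 90.1 and 7.51 in mtor xu015/+. krt5, another epidermal keratin, had 429, 181 and 165 in WT and 5172, 619.6 and 101 in mtor xu015/+. Replicate 1 of mtor xu015/+ was thus far above every other library in both, and the groups overlapped. Of 27 skin genes in the list, 22 were tested, 20 were higher in mtor xu015/+, and the summed level was 6557 to 7618 in WT and 7108 to 22575 in mtor xu015/+. None of the 27 was at 0 in all 6 libraries. tp63, a transcription factor of stratified epithelia, had 303, 369.7 and 348 in WT and 396, 285 and 274 in mtor xu015/+.

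The second is the atrium. myh6, the atrial myosin heavy chain of zebrafish, had 7742, 4315 and 30864 in WT and 6707, 5633 and 8923 in mtor xu015/+. kcnj5, a subunit of the acetylcholine-gated potassium channel of the atrium, had 67, 64.3 and 593 in WT and 84, 47.4 and 62.9 in mtor xu015/+, and chrm2a, a muscarinic receptor, had 69.1, 94.1 and 349 in WT and 63, 80.8 and 40.4 in mtor xu015/+. WT replicate 3 was the highest library in each, and the other 5 libraries lay far below it. Summed over the 8 atrial genes tested the level was 6242 to 36784 in WT and 7327 to 11139 in mtor xu015/+, and their median log2 fold change went from -1.05 to -0.0018 without WT replicate 3. The 6 atrial markers of the other list had 5 lower and summed to 68226 to 113755 in WT and 63439 to 87531 in mtor xu015/+.

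The third is a set of stress-responsive genes. fkbp5, a co-chaperone induced by glucocorticoids, had 7074, 9755 and 20520.0 in WT and 5881, 8698 and 15093 in mtor xu015/+, and tsc22d3, another glucocorticoid target, had 2960.4, 6045 and 6429 in WT and 2471, 5332 and 7023 in mtor xu015/+. ddit4, which encodes an inhibitor of mTORC1 induced by stress, had 784, 1296 and 1057 in WT and 45.3, 883 and 1458 in mtor xu015/+. Within both groups replicate 1 was lowest and replicate 3 highest in the first pair of genes, and ddit4 was far lower in replicate 1 of mtor xu015/+ than in any other library. The 19 glucocorticoid and stress genes, listed after their values were seen, had 11 higher, and their sums overlapped (52982 to 85616 in WT and 41809 to 90045 in mtor xu015/+). Of the 19, 4 were higher and 0 lower at an unadjusted p under 0.05 (edgeR), beside 3.42% and 3.83% of all genes. Without overlap, 3 were higher and 0 lower, beside 5.84% and 7.18%. The largest log2 fold change in this list, 1.93, is that of zbtb16a below, a gene picked for its small p. The counts of this list are thus no independent evidence. List deviations here and below are from the mean over 6 libraries on the log2 scale, less the median deviation of all genes tested in that library. The 51 immediate early and stress genes tested deviated by -0.30, -0.035 and 0.37 in WT and -0.41, 0.019 and 0.33 in mtor xu015/+. This spread within groups is far larger than the difference between them (median log2 fold change -0.036). Among the 51, arid5b (-0.38) and nr4a3 (-0.82) were lower without overlap, and ppp1r10 (-0.21) and klf4 (1.31) overlapped. Counting genes that stood at least 2-fold above all 5 other libraries at a count of 50 or more, there were 20, 4 and 30 in WT and 55, 5 and 14 in mtor xu015/+ (replicates 1, 2 and 3).

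The targeted gene, mtor, lies on chromosome 8 from 46077609 to 46321918 (GRCz11) and had normalized counts of 6601, 3970.3 and 2522 in WT and 6165, 7294 and 5389 in mtor xu015/+. The groups overlap, and the mean was higher in the libraries labelled mtor xu015/+ than in WT, 6283 against 4365. The difference did not pass the test (log2 fold change 0.53 ± 0.28 (SE), adjusted p = 0.697, edgeR quasi-likelihood), and an exact two-sided permutation test of the 6 counts gave p = 0.3, where 0.1 is the smallest that 3 against 3 allows. The count of mtor therefore does not check the labels, which are followed as given.

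Across the 18884 genes the shift was small. The median log2 fold change was -0.0096 and the median of its absolute size was 0.13, with 90% of genes below 0.47. For pairs of libraries, the median absolute log2 difference averaged 0.18 within WT, 0.20 within mtor xu015/+ and 0.20 between the groups. The 9 pairs between groups spanned 0.19 to 0.21, which overlaps the range of pairs within mtor xu015/+ (0.19 to 0.20), and the lowest pair was within WT (0.16). For a typical gene, pools of unlike genotype thus differed about as much as pools of mtor xu015/+ among themselves.

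With an adjusted p under 0.05 and a difference of at least 1.5-fold, 1 of the 18884 genes was called, 0.00530% of those tested, and 5 of 21216 (0.0236%) when genes without a name or place, which make up the other 4, were included. edgeR gave 1370 of the named and placed genes an unadjusted p under 0.05, 7.25%, of which 646 were higher (3.42%) and 724 lower (3.83%) in mtor xu015/+. DESeq2 called 32, 17 higher and 15 lower, and limma-voom 0. All 3 libraries of mtor xu015/+ lay above all 3 WT libraries in 1103 genes (5.84%), and below them in 1355 (7.18%). Most of these 2458 genes differed little: the median absolute log2 fold change was 0.29 and 1984 were under 1.5-fold. Level and direction went together. Of genes with a mean count under 100, 4.40% were higher without overlap and 7.42% lower, whereas of the 3920 genes at 1000 or more, 8.14% were higher and 5.59% lower. List counts below are to be read beside the shares of all 18884 genes given here.

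**Figure D1:**
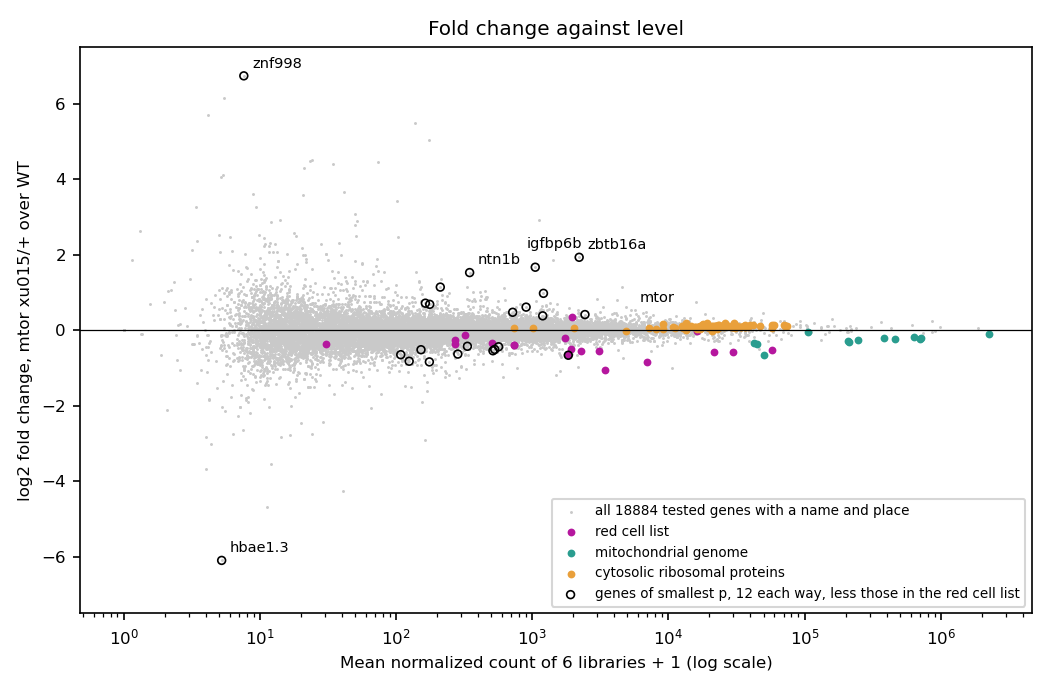
Each point is a tested gene with a name and a place, by its mean normalized count over the 6 libraries plus 1 (log scale) and its log2 fold change between mtor xu015/+ and WT. Red cell genes and genes of the mitochondrial genome lie mostly below 0, ribosomal protein genes sit just above it (median 0.090), and ntn1b, zbtb16a and igfbp6b stand out among the well-counted genes.

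ntn1b was the only named and placed gene that edgeR called, whereas it was among the 32 called by DESeq2. It encodes netrin 1b, a secreted guidance cue, and lies on chromosome 3 from 25708549 to 25814097. ntn1b had 147, 179 and 209 in WT and 465, 489 and 586 in mtor xu015/+, so that every mtor xu015/+ library was far above every WT library (log2 fold change 1.53 ± 0.18 (SE), adjusted p = 0.0473). In the Tg(cmlc2:tfeb) libraries it had 345, 324 and 232. Its adjusted p lay just under the threshold and rose to 0.0893 to 0.257 when any 1 library was left out, with a log2 fold change of 1.40 to 1.66. Of the 10 genes for netrins and their receptors tested, no other passed an unadjusted p of 0.05. ntn1a, its paralog, had 495, 622 and 471 in WT and 503, 623 and 509.9 in mtor xu015/+.

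Among genes with a gene-type name, those of smallest p that were higher in mtor xu015/+ included a pair of paralogs. zbtb16a and zbtb16b encode PLZF, a zinc finger repressor of the BTB family. zbtb16a had 1505, 557 and 690.3 in WT and 3531, 4721 and 2253 in mtor xu015/+ (log2 fold change 1.93 ± 0.38 (SE), adjusted p = 0.263), and zbtb16b on another chromosome had 909.7, 778 and 752 in WT and 2133, 1344 and 1328 in mtor xu015/+ (log2 fold change 0.98 ± 0.19 (SE), adjusted p = 0.263). Neither overlapped between groups, as the choice required, and whether the stress response has a part in either was not tested. igfbp6b, a binding protein for insulin-like growth factors, had 573, 457 and 479.8 in WT and 1233, 1147 and 2416 in mtor xu015/+ (log2 fold change 1.67 ± 0.34 (SE), adjusted p = 0.32). brf1a encodes a subunit of the initiation factor of RNA polymerase III, which makes tRNA and 5S rRNA. brf1a had 147, 101 and 145 in WT and 335, 246 and 287 in mtor xu015/+ (log2 fold change 1.14 ± 0.21 (SE), adjusted p = 0.258).

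The remainder of the upper 12 differed by less, apart from znf998. fahd2a, a member of the fumarylacetoacetate hydrolase family, had 767, 719.9 and 649.9 in WT and 1049.8, 1024 and 1191 in mtor xu015/+ (log2 fold change 0.61). ccm2l, which acts in endothelial signalling, had 591, 571 and 639 in WT and 832, 767 and 903 in mtor xu015/+ (0.47). lrig1, a membrane protein that dampens ErbB receptors in mammals, had 2132, 2009 and 2127 in WT and 2873, 2931 and 2548 in mtor xu015/+ (0.41). In each, as the choice required, the lowest mtor xu015/+ library was above the highest WT library. spag9a, a scaffold of JNK signalling and motor transport, had 126, 116 and 129 in WT and 201, 220.2 and 187 in mtor xu015/+ (0.72), nudt13, a Nudix hydrolase, had 129.8, 122 and 153 in WT and 196, 217 and 237 in mtor xu015/+ (0.68), and sema4c, a semaphorin, had 968, 1087 and 1052 in WT and 1379, 1396 and 1269 in mtor xu015/+ (0.38). znf998, a zinc finger gene, was at 0 in all WT libraries and at 15.5, 16.7 and 7.51 in mtor xu015/+, at least 4.41-fold higher against a floor of 3 counts per library. In Tg(cmlc2:tfeb), which also counts toward the filter, znf998 had 21.4, 24.4 and 14.6. The adjusted p of these genes was 0.14 or more with edgeR, whereas DESeq2 called fahd2a, znf998, spag9a and nudt13 here and zbtb16a, zbtb16b, igfbp6b and brf1a above.

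On the lower side, a gene with a clone-type name, taken up below with position in the genome, had a smaller adjusted p (0.108, edgeR, log2 fold change -2.92). Among lower genes with a gene-type name, to which the choice was limited, sh3bp4a led by p. Its mammalian counterpart acts in endocytosis and limits mTORC1 through the Rag GTPases. sh3bp4a had 563, 611 and 654 in WT and 386, 412 and 454 in mtor xu015/+ (log2 fold change -0.54 ± 0.09 (SE), adjusted p = 0.183). cds1, which makes CDP-diacylglycerol for phosphoinositide synthesis, had 158, 154 and 162 in WT and 91.7, 82.7 and 93.9 in mtor xu015/+ (log2 fold change -0.82 ± 0.14 (SE), adjusted p = 0.183). gstt1b, a glutathione S-transferase, had 675, 578 and 612 in WT and 423, 417 and 469 in mtor xu015/+ (log2 fold change -0.51). In all 3 genes, as the choice required, every mtor xu015/+ library was below every WT library. plxna4, a semaphorin receptor, had 373, 319 and 340.2 in WT and 221, 212 and 233 in mtor xu015/+ (-0.63), spartb, the spartin gene, had 606, 651 and 694 in WT and 524, 458 and 457 in mtor xu015/+ (-0.44), and rell2, a relative of the TNF receptor RELT, had 227, 209 and 237 in WT and 92.8, 158 and 124 in mtor xu015/+ (-0.84). rmi2, a subunit of the complex that resolves DNA crossovers with the BLM helicase, had 121, 150.4 and 121 in WT and 84, 79 and 87.3 in mtor xu015/+ (-0.65). The acetyltransferase gene nat16 had 379, 416 and 351 in WT and 274, 292 and 286 in mtor xu015/+ (-0.43) and sdf2, whose product resides in the endoplasmic reticulum, had 182, 185 and 168 in WT and 120.5, 133 and 120.2 in mtor xu015/+ (-0.52). hbba1, slc4a1a and hbae1.3, also among the 12, were red cell genes and are taken up next. None of the 12 passed adjustment with edgeR (adjusted p = 0.183 at the smallest), whereas DESeq2 called cds1, plxna4, rell2, slc4a1a and hbae1.3.

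Red cell transcripts were lower as a group. Zebrafish red cells are nucleated, and blood left in a ventricle carries globin, heme and membrane transcripts. hbba1, which encodes a major adult beta globin and is listed under a pair of gene IDs, had 25119, 27264 and 25429 in WT and 16231, 19601 and 16527 in mtor xu015/+ for the ID that starts at 55098457 on chromosome 3 (log2 fold change -0.57 ± 0.11 (SE), adjusted p = 0.285) and 64055, 75589 and 65479 in WT and 41953, 54628 and 46007 in mtor xu015/+ for the ID at 55103445 (log2 fold change -0.52). The alpha globin hbaa1 had 35124, 38744 and 32574 in WT and 21041, 26675 and 24192 in mtor xu015/+ (-0.57). The copies are near-identical and reads could be split between them. slc4a1a, the band 3 anion exchanger of the red cell membrane, has no such copy beside it and had 2039, 2472 and 2251 in WT and 1249.8, 1625 and 1394 in mtor xu015/+ (log2 fold change -0.66 ± 0.13 (SE), adjusted p = 0.288). In each, all 3 libraries of mtor xu015/+ lay below all 3 of WT, which the choice required of slc4a1a and the first hbba1 ID. Replicate 2 was the highest of the mtor xu015/+ libraries in each.

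Among the other red cell genes, which were named after their values were seen, hbba2 had 8615, 9019.9 and 9016 in WT and 4168, 5699 and 5074 in mtor xu015/+ (-0.83) and hbaa2 had 4313, 4653 and 4765 in WT and 1869, 2562 and 2234 in mtor xu015/+ (-1.04). Outside the globins, cahz, a red cell carbonic anhydrase, had 3572, 4234 and 3282 in WT and 2304, 2850.1 and 2366 in mtor xu015/+ (-0.56), rhag, the Rh-associated membrane protein, had 839.5, 915 and 739 in WT and 612, 669.8 and 623 in mtor xu015/+ (-0.39), and alas2, the first enzyme of heme synthesis in red cells, had 2383, 2310.1 and 2083 in WT and 1146, 1948 and 1715 in mtor xu015/+ (-0.49). The embryonic globin hbae1.3 at 55127549 was close to the floor in WT, at 8.37, 13.8 and 3.27, and at 0 in mtor xu015/+, at least 2.83-fold lower against a floor of 3 counts per library. In Tg(cmlc2:tfeb), which also counts toward the filter, hbae1.3 had 31.6, 56.6 and 42.6. Of the 19 red cell genes tested, 18 were lower, 12 of them at an unadjusted p under 0.05 and 10 without overlap, against 3.83% and 7.18% of all genes. The 19 are not separate observations, since red cell transcripts of a pool come from the same blood and hbba1 is counted under both IDs. Their median log2 fold change was -0.39, beside -0.0096 for all genes tested, and stayed at -0.53 to -0.35 when any 1 library was left out. Their summed level was 170039 to 190405 in WT and 113639 to 143077 in mtor xu015/+, so the groups did not overlap (ratio of means 0.71). The only member that was higher was tspo, a mitochondrial outer membrane protein that is not restricted to red cells (1808, 1851 and 1514 in WT and 2554, 1833 and 2213 in mtor xu015/+, with overlap). The red cell regulators klf1 and gata1a overlapped between groups as well, and so did sptb, the beta spectrin gene, at 15909, 16500.1 and 16292 in WT and 16077, 18321 and 13385 in mtor xu015/+.

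A further list of heme, iron and red cell genes was drawn up after these values were seen. The transferrin receptor genes that bring in iron were lower, tfr1b with 2643, 2434 and 2801 in WT and 1653, 2019 and 1328 in mtor xu015/+ (-0.66) and tfr1a with 2137, 1826 and 1855 in WT and 1390.2, 1775 and 945 in mtor xu015/+ (-0.50). The heme enzyme genes cpox (-0.27) and hmbsa (-0.27) and the erythropoietin receptor epor (-0.45) also did not overlap. Other heme enzyme genes, alad, uros and fech, had log2 fold changes of -0.00073, 0.02 and -0.041 with overlap. Of the 21 tested, 19 were lower, and the sums did not overlap (13337 to 13663 in WT and 10237 to 12462 in mtor xu015/+).

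Genes of the mitochondrial genome were likewise lower, and their nuclear partners were not. The mitochondrial genome encodes 13 subunits of the respiratory chain and ATP synthase, which assemble with many subunits imported from the cytosol. mt-nd1, a subunit of complex I, had 238053, 244075 and 219759.8 in WT and 193812, 196535 and 176619 in mtor xu015/+ (log2 fold change -0.31 ± 0.091 (SE), adjusted p = 0.495), mt-nd3 had 49721, 52676 and 49845 in WT and 39887, 42023 and 35605 in mtor xu015/+ (-0.37) and mt-atp8, a subunit of ATP synthase, had 51422, 77370.5 and 55535 in WT and 44387, 39866 and 33576 in mtor xu015/+ (-0.65). mt-nd2 (-0.27) and mt-nd4l (-0.34), also of complex I, did not overlap either. Together the 13 genes took 15.9%, 15.9% and 14.8% of counts in WT and 13.2%, 14.5% and 13.2% in mtor xu015/+. Each share of the mtor xu015/+ libraries was thus below each WT share, though WT replicate 3 and mtor xu015/+ replicate 2 lay close together. All 13 had a negative log2 fold change, 5 at an unadjusted p under 0.05 and 8 without overlap, beside 3.83% and 7.18% of all genes. The median of the 13 was -0.24 and ranged over -0.30 to -0.19 when any 1 library was left out. The genes are transcribed as long shared precursors and are not independent of each other. Of the 84 nuclear-encoded genes of the same complexes, 43 were higher and 41 lower, none reached an unadjusted p of 0.05 and the median was 0.0034. Whether RNA selection differed between the libraries was not tested.

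**Figure D2:**
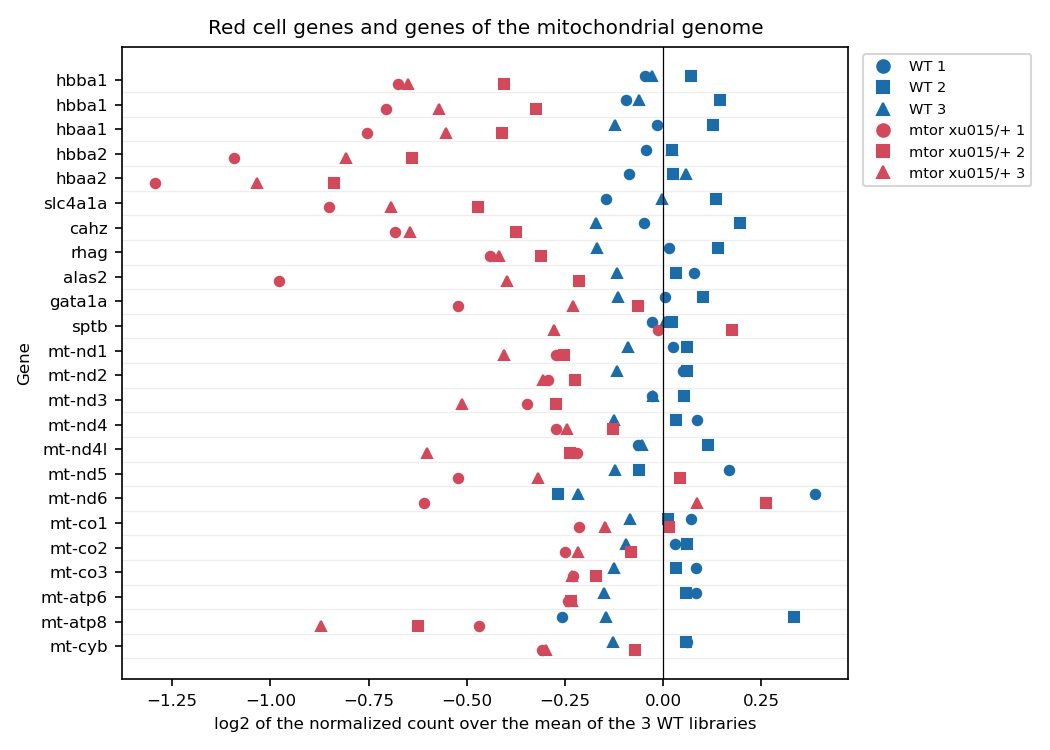
Points are libraries and rows are genes, with log2 of the normalized count over the mean of the 3 WT libraries on the x axis; hbba1 appears once for each of its gene IDs. The mtor xu015/+ libraries lie left of the WT libraries in the globins, slc4a1a, cahz, rhag and alas2, with replicate 2 the nearest to WT, and in 8 of the 13 mitochondrial genes, whereas sptb and mt-nd6 overlap.

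The translation apparatus lay slightly higher in mtor xu015/+, with unlike support among its parts. Translation factors had 49 of 63 genes higher (median 0.11), 10 higher and 1 lower at an unadjusted p under 0.05, beside 3.42% and 3.83% of all genes. Without overlap, 12 were higher and 3 lower, beside 5.84% and 7.18%. As a list they deviated by 0.037, -0.12 and -0.063 in WT and 0.045, 0.011 and 0.061 in mtor xu015/+. Replicates 2 of mtor xu015/+ and 1 of WT were thus in reversed order, and the groups overlapped. eif4g1a, the scaffold of the cap-binding complex, had 3646, 3517 and 3740.2 in WT and 4172, 4692 and 4272 in mtor xu015/+ (log2 fold change 0.27 ± 0.078 (SE), adjusted p = 0.495). eif3i had 6704, 6074 and 6433 in WT and 7689, 6856 and 7714 in mtor xu015/+ (0.21), eif3c 19941, 18081 and 18534 in WT and 22890.0, 20246 and 21522 in mtor xu015/+ (0.19), and pabpc4, a poly(A)-binding protein, 46570.3, 43696 and 43679 in WT and 48237, 50239 and 53815 in mtor xu015/+ (0.19). None of these 4 genes overlapped between groups. eif4g2b, a relative of the scaffold, was also free of overlap with 4163, 4004 and 3827 in WT and 4499.8, 5010.0 and 4722 in mtor xu015/+ (0.25). The exception on the lower side was eif4eb, a cap-binding protein named after its values were seen, with 506, 449 and 436 in WT and 348, 399 and 376 in mtor xu015/+ (-0.31).

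Ribosome biogenesis genes were higher in 48 of 63 (median 0.074), 9 higher and 0 lower at an unadjusted p under 0.05, beside 3.42% and 3.83% of all genes. Without overlap, 13 were higher and 4 lower, beside 5.84% and 7.18%. polr1a, the large subunit of RNA polymerase I, had 1328, 1327 and 1321 in WT and 1703, 1559.8 and 1447 in mtor xu015/+ (log2 fold change 0.24 ± 0.079 (SE), adjusted p = 0.523). Its WT libraries were nearly equal and every mtor xu015/+ library was above them. utp4 and noc3l, which process pre-rRNA, had 807, 822 and 747 in WT and 1058, 839.8 and 987 in mtor xu015/+ (0.28) and 424, 420.2 and 424 in WT and 532, 448 and 494 in mtor xu015/+ (0.22). rcl1 (0.23) and nob1 (0.17) also did not overlap. In both lists the median kept its sign without any 1 library, over 0.08 to 0.16 for translation factors and 0.05 to 0.13 for ribosome biogenesis.

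Cytosolic ribosomal protein genes gave a different picture. 80 of 82 were higher (median 0.09), but none reached an unadjusted p of 0.05 and none was free of overlap. rpl9 had 28607, 28464 and 27424 in WT and 34202, 28143 and 34698 in mtor xu015/+, and rplp0 had 71125, 67138 and 64377 in WT and 80148, 64489.7 and 79471 in mtor xu015/+, both named after their values were seen. The list deviated by -0.023, -0.067 and -0.066 in WT and 0.15, -0.13 and 0.11 in mtor xu015/+. Replicates 1 and 3 of mtor xu015/+ were thus above every WT library and replicate 2 was below every one. The genes of this list went together within a library and are not separate observations. Without replicate 2 the median was 0.17.

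**Figure D3:**
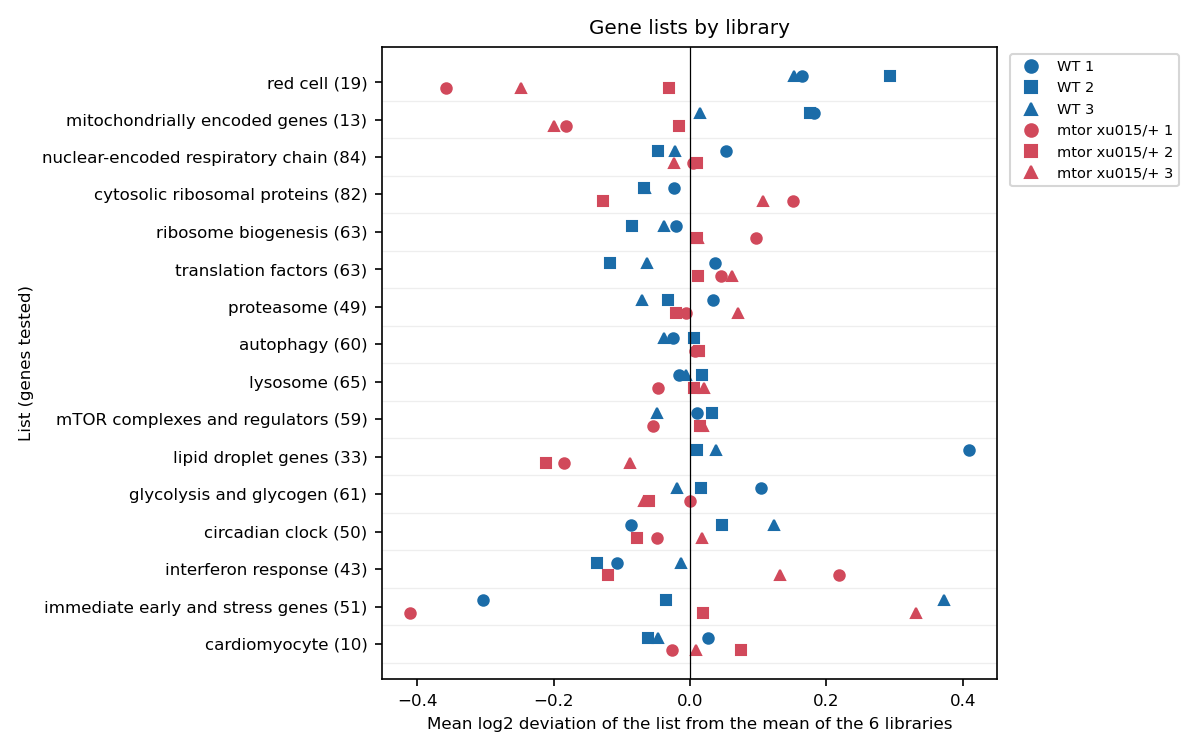
Rows are gene lists with the number of genes tested, and points are libraries. They are placed by the mean log2 deviation of the list's genes from their mean over the 6 libraries, less the median deviation of all genes tested in that library. The red cell, mitochondrially encoded and lipid droplet lists separate the groups, the last holding genes that the study chose as lower on these samples. Ribosome biogenesis does so too, as does autophagy by a narrow margin (0.0056 in the highest WT library, 0.0068 in the lowest of mtor xu015/+). Whether autophagy separates without that centring was not tested. Ribosomal proteins split the mtor xu015/+ libraries (0.15, -0.13 and 0.11), and the immediate early list spreads by replicate within both groups.

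The mTOR complexes and the proteins that act on them were evenly divided. Of 59 genes for mTOR complexes and regulators, 29 were higher, and the median was -0.0067. At an unadjusted p under 0.05, 2 were higher and 2 lower, beside 3.42% and 3.83% of all genes. deptor, whose product binds and inhibits mTOR, had 567, 538 and 454 in WT and 317, 353 and 393 in mtor xu015/+ and did not overlap (log2 fold change -0.55 ± 0.16 (SE), adjusted p = 0.495). sesn1, a sestrin that limits mTORC1 when leucine is low, had 5503, 7459.5 and 6894 in WT and 7450.3, 8454 and 10125 in mtor xu015/+ (0.39), with overlap. nprl2, a subunit of the GATOR1 complex that restrains mTORC1, had 271, 249 and 184 in WT and 165, 175 and 203 in mtor xu015/+ (-0.38), also with overlap, and pik3ca, a catalytic subunit of PI3 kinase, had 759, 793 and 812 in WT and 838, 969 and 879.8 in mtor xu015/+ (0.18).

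Autophagy genes were higher in 35 of 60 (median 0.037), 3 higher and 0 lower at an unadjusted p under 0.05 beside 3.42% and 3.83% of all genes, and 9 higher and 1 lower without overlap beside 5.84% and 7.18%. gabarapb, which coats autophagosomes, had 6013, 5955 and 5825 in WT and 6681, 6924 and 6739 in mtor xu015/+ (log2 fold change 0.19 ± 0.068 (SE), adjusted p = 0.56), and sqstm1, the receptor p62, had 3279, 3231 and 3378 in WT and 4079.9, 3401 and 4161 in mtor xu015/+ (0.24). bnip3, a receptor for mitochondria, had 1089.7, 1327 and 1329 in WT and 1516, 1406 and 1469 in mtor xu015/+ (0.23). These differences were small, and the groups did not overlap. The proteasome list had 33 of 49 higher (median 0.044), 2 higher and 0 lower at an unadjusted p under 0.05, a share near that of all genes, and 4 higher and 0 lower without overlap. Those at an unadjusted p under 0.05 were psmg1 (0.18) and psmc1b (0.19). Lysosome genes were evenly divided, 29 higher of 65 (median -0.013), 3 higher and 2 lower at an unadjusted p under 0.05. ctsla, a cathepsin L, had 5765, 5334 and 5449 in WT and 7379.5, 6716 and 8562 in mtor xu015/+ (log2 fold change 0.45 ± 0.12 (SE), adjusted p = 0.451), and psap, the precursor of saposins, had 13677, 14022 and 12959 in WT and 15446, 14349.9 and 15529 in mtor xu015/+ (0.16), whereas scarb2c (0.28) and atp6v1ba (-0.27) overlapped. atp6v1g1, a subunit of the proton pump, had 1716, 1829 and 1661 in WT and 1356, 1467 and 1408 in mtor xu015/+ (-0.30).

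Lipid droplet genes were lower in 27 of 33 (median -0.22), 2 higher and 8 lower at an unadjusted p under 0.05, beside 3.42% and 3.83% of all genes. Those 8 include bscl2l, fabp7a, cidec and edn1. The study chose these genes as lower on these same samples, so the counts rest in part on that choice. fabp7a, a fatty acid binding protein, had 261, 199 and 207 in WT and 117, 68.7 and 109.9 in mtor xu015/+ (log2 fold change -1.17 ± 0.31 (SE), adjusted p = 0.454), and cidec, which enlarges lipid droplets, had 143, 94.1 and 119 in WT and 47.5, 39.9 and 78.9 in mtor xu015/+ (log2 fold change -1.10 ± 0.31 (SE), adjusted p = 0.495). Both were without overlap. fabp10a was thinly counted at 23, 18.4 and 13.1 in WT and 6.63, 4.64 and 11.3 in mtor xu015/+ (-1.26). In the opposite direction fabp3, the fatty acid carrier of heart muscle, had 34886, 37154 and 36339 in WT and 43657, 43970.4 and 43508 in mtor xu015/+ (log2 fold change 0.27 ± 0.064 (SE), adjusted p = 0.415), and lipea, a hormone-sensitive lipase, had 63.9, 79.2 and 64.3 in WT and 124, 95.7 and 107 in mtor xu015/+ (log2 fold change 0.65 ± 0.17 (SE), adjusted p = 0.455). Several of the lower genes were high in WT replicate 1. The adipogenic factor pparg, named after its values were seen, had 221.9, 127 and 141 in WT and 106, 81.8 and 109.9 in mtor xu015/+ (-0.72). The list deviated by 0.41, 0.01 and 0.039 in WT and -0.18, -0.21 and -0.089 in mtor xu015/+, and its median was -0.087 at its weakest in leave-one-out fits. The 10 adipocyte markers tested, which include cidec, lipea and pparg, had 9 lower and a summed level of 21382 to 28856 in WT and 18065 to 22547 in mtor xu015/+, highest in WT replicate 1.

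fabp7a, cidec, bscl2l and edn1 of the lipid droplet list also belong to the genes that the study lists as lower in both of its lines. That list was chosen on these samples, so its direction here is no independent evidence. For bscl2l, fabp7a, cidec and edn1 the paper also reports lower levels in both lines by quantitative RT-PCR. All 11 tested had a negative log2 fold change, with a median of -1.20, and no member passed adjustment with edgeR (adjusted p = 0.454 at the smallest). Their values by library differed in kind. mpz, the myelin protein zero gene, had 464, 249 and 252 in WT and 85.1, 111 and 209 in mtor xu015/+, and bscl2l, a seipin-like gene, had 587, 204 and 221 in WT and 111, 136 and 194 in mtor xu015/+. smtnl1, a smoothelin-like gene, had 1496, 379 and 706 in WT and 145, 403 and 533 in mtor xu015/+ and edn1, the endothelin 1 gene, had 494, 240.0 and 194 in WT and 201, 152 and 84.5 in mtor xu015/+. In these 4 genes WT replicate 1 was the highest library, and the groups overlapped in smtnl1 and edn1. grn1, a granulin gene, had 65.9, 68.9 and 626 in WT and 88.4, 75.2 and 83.6 in mtor xu015/+, and ankrd9, an ankyrin repeat gene, had 154, 129 and 445 in WT and 89.5, 99.4 and 92 in mtor xu015/+. In both, as in kcnj5, WT replicate 3, the library rich in atrial transcripts, was the highest. Without it the log2 fold change of kcnj5 went from -1.90 to -0.026, that of grn1 from -1.62 to 0.29, and that of ankrd9 from -1.37 to -0.59. si:ch211-171h4.3 showed the same library pattern, with 181, 150.4 and 406 in WT and 118, 149 and 90.1 in mtor xu015/+, and went from -1.05 to -0.48. MYADM had 7142, 4911 and 4923 in WT and 5378, 5402 and 5793 in mtor xu015/+ (-0.035). The bscl2l, smtnl1 and edn1 values without WT replicate 1 were -0.53, -0.58 and -0.58, and that of mpz was -0.89, whereas fabp7a and cidec stayed at -0.97 and -0.91 at their weakest.

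**Figure D4:**
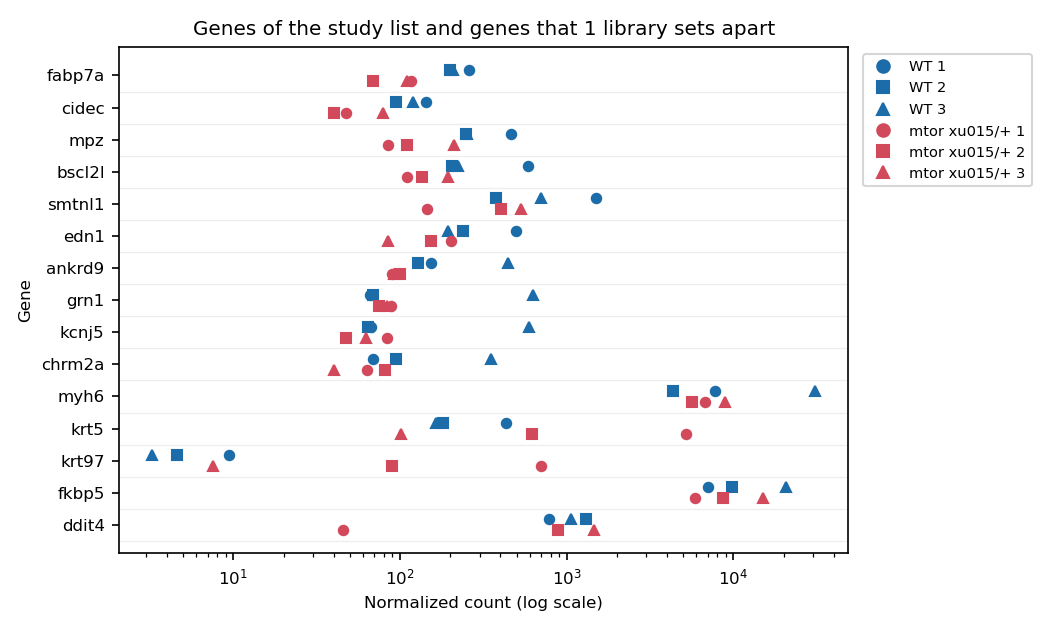
Points are libraries and rows are genes, with the normalized count on a log scale. fabp7a and cidec separate the groups, WT replicate 1 stands apart in mpz, bscl2l, smtnl1 and edn1, WT replicate 3 in ankrd9, grn1, kcnj5, chrm2a and myh6, and replicate 1 of mtor xu015/+ in krt5, krt97 and ddit4.

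Genes for stored and broken-down glucose were lower in part. Of 61 glycolysis and glycogen genes, 38 were lower (median -0.052), 3 higher and 9 lower without overlap, beside 5.84% and 7.18% of all genes. The list deviated by 0.10, 0.017 and -0.020 in WT and 0.00061, -0.060 and -0.067 in mtor xu015/+, so the groups overlapped. Its summed level leaned the other way, at 1621738 to 1825345 in WT and 1773194 to 1879336 in mtor xu015/+, also with overlap. pygma, the muscle glycogen phosphorylase, had 2265, 2274 and 2348 in WT and 1471, 1772 and 1366 in mtor xu015/+ (log2 fold change -0.58 ± 0.15 (SE), adjusted p = 0.469). pfkma, a muscle phosphofructokinase, had 285, 197 and 262 in WT and 141, 186 and 152 in mtor xu015/+ (-0.63), and ppp1r3aa, which targets a phosphatase to glycogen, had 97.4, 102 and 105 in WT and 69.6, 69.7 and 57.3 in mtor xu015/+ (-0.63). All 3 are muscle forms and none overlapped between groups. pgam1b overlapped (-0.37). gapdh, in the middle of the pathway, was higher at 882354, 749333 and 736535 in WT and 938946, 937717 and 925907 in mtor xu015/+ (0.24). Fatty acid oxidation was evenly divided, 22 of 46 genes higher (median -0.013, 3 higher and 1 lower at an unadjusted p under 0.05). Within it pdk2b, a kinase that turns off pyruvate dehydrogenase, had 16509, 9184 and 10393 in WT and 21639, 20143 and 18424 in mtor xu015/+ (log2 fold change 0.74 ± 0.22 (SE), adjusted p = 0.495), and decr2, an auxiliary enzyme of peroxisomes, had 180.1, 188 and 189 in WT and 168, 144 and 139.9 in mtor xu015/+ (-0.30). In sterol synthesis 24 of 42 genes were higher (median 0.046, 2 higher and 1 lower at an unadjusted p under 0.05), with nsdhl (0.30) and fdps (0.20) without overlap and tmem97 with overlap (-0.51).

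Clock genes were divided by library as well as by group. The circadian clock is a loop in which Clock and Arntl activate per, cry and nr1d genes whose products repress or retune the loop. Of 50 tested, 33 were lower (median -0.071), 3 higher and 6 lower at an unadjusted p under 0.05, beside 3.42% and 3.83% of all genes. per3 had 860.5, 806 and 829 in WT and 679.6, 651 and 706 in mtor xu015/+ (log2 fold change -0.29 ± 0.087 (SE), adjusted p = 0.495), rorab, an activator of the loop, 844, 982 and 765 in WT and 659, 692 and 578 in mtor xu015/+ (-0.43), cry1b 692, 498 and 549.6 in WT and 414, 382 and 461 in mtor xu015/+ (-0.47) and nr1d2b 916, 1101 and 773 in WT and 725, 730.2 and 711 in mtor xu015/+ (-0.37). None of these overlapped. noctb, a clock output gene, had 300.4, 308 and 279 in WT and 267, 242 and 203 in mtor xu015/+ (-0.32). per1a, named after its values were seen, was on the other side with 70.14, 68.9 and 55.6 in WT and 84, 96.6 and 89.2 in mtor xu015/+ (0.47), and clocka and arntl1b overlapped (0.17 and -0.15). The list deviated by -0.086, 0.047 and 0.12 in WT and -0.049, -0.078 and 0.018 in mtor xu015/+, so that WT replicate 1 was the lowest library and the groups overlapped. Its median was -0.0031 without WT replicate 3. The hour at which each pool was taken is not given, so hour and genotype cannot be told apart.

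Immune lists were mixed. Interferon response genes were higher in 29 of 43 (median 0.094), 4 higher and 0 lower at an unadjusted p under 0.05, beside 3.42% and 3.83% of all genes. ifih1, the sensor MDA5, had 289, 304 and 329 in WT and 411, 424 and 369 in mtor xu015/+ (log2 fold change 0.38 ± 0.094 (SE), adjusted p = 0.416), irf9 had 598, 657 and 581 in WT and 930.5, 724 and 1021 in mtor xu015/+ (0.54), and irf1b had 237, 268 and 363 in WT and 783, 416 and 436 in mtor xu015/+ (0.91). All 3 were without overlap, irf9 and irf1b being nearest to WT in replicate 2. socs1a, an inhibitor of cytokine signalling, overlapped (0.49). The list itself deviated by -0.11, -0.14 and -0.013 in WT and 0.22, -0.12 and 0.13 in mtor xu015/+, with replicate 2 of mtor xu015/+ among the WT libraries. For alternative activation of macrophages, 19 of 43 genes were higher (median -0.036, 5 higher and 5 lower at an unadjusted p under 0.05). stat3 had 2459, 2853 and 2560.4 in WT and 4235, 2944 and 3819.7 in mtor xu015/+ (log2 fold change 0.48 ± 0.14 (SE), adjusted p = 0.495), arg2, an arginase, 104, 70 and 91.6 in WT and 38.7, 51.1 and 49.8 in mtor xu015/+ (-0.92), and il13ra2, a decoy receptor, 29.3, 12.6 and 18.5 in WT and 33.2, 58.5 and 41.3 in mtor xu015/+ (1.13). The members thus went both ways, as hbegfa (-0.29) and mrc1a, the mannose receptor (-0.89, with overlap), were lower. Of the macrophage markers 6 of 24 were higher (median -0.10, 0 higher and 0 lower at an unadjusted p under 0.05), and of the neutrophil markers 8 of 16 were higher (median 0.0013, 0 higher and 1 lower at an unadjusted p under 0.05). The summed level of 24 macrophage markers was 9006 to 12746 in WT and 9477 to 12072 in mtor xu015/+ and that of 16 neutrophil markers 6524 to 7550.2 in WT and 6395 to 7073 in mtor xu015/+.

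Cell cycle and matrix lists lay near all genes in their counts. Of 99 replication and cell cycle genes, 58 were lower (median -0.034), 0 higher and 4 lower at an unadjusted p under 0.05 beside 3.42% and 3.83% of all genes, and 5 higher and 8 lower without overlap. The genes mcm7, mcm4 and mcm2 encode subunits of the replicative helicase. mcm7 had 498, 468 and 607 in WT and 398, 283 and 354 in mtor xu015/+ (log2 fold change -0.61 ± 0.15 (SE), adjusted p = 0.415), mcm4 47.1, 40.2 and 72 in WT and 35.4, 39.9 and 25.4 in mtor xu015/+ (-0.66) and mcm2 139, 125 and 162 in WT and 108, 124 and 108 in mtor xu015/+ (-0.33). The fourth was bub1bb, a spindle checkpoint gene, with 149.7, 149 and 132 in WT and 113, 111 and 114 in mtor xu015/+ (-0.35). Among matrix and TGF-beta genes 50 of 77 were lower (median -0.057), 1 higher and 3 lower at an unadjusted p under 0.05 and 3 higher and 3 lower without overlap. Without WT replicate 3 the medians of the lists turned to 0.012 for cell cycle and 0.0026 for matrix. sparc, a matrix glycoprotein, had 3668, 3569.6 and 2946 in WT and 2469.8, 2524 and 2869 in mtor xu015/+ (log2 fold change -0.37 ± 0.11 (SE), adjusted p = 0.495), tnc, tenascin C, 46.1, 67.7 and 22.9 in WT and 21, 16.7 and 12.2 in mtor xu015/+ (-1.45) and postnb, a periostin, 790.3, 779.6 and 897 in WT and 320.5, 671 and 571 in mtor xu015/+ (-0.66). lama5, a laminin of basement membranes, was higher at 3052, 2891 and 2525 in WT and 3068, 3432 and 3479.8 in mtor xu015/+ (0.24).

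Contractile genes were mostly flat, and most ion channel genes were slightly higher. In the sarcomere list 32 of 71 genes were higher (median -0.028, 3 higher and 3 lower at an unadjusted p under 0.05), in the fetal programme 8 of 21 were higher (median -0.045, 0 higher and 1 lower at an unadjusted p under 0.05), and among ion channels 31 of 47 were higher (median 0.077, 2 higher and 3 lower at an unadjusted p under 0.05). These counts stand beside 3.42% higher and 3.83% lower of all genes. The ion channel median was 0.023 to 0.080 when any 1 library was left out. The deviations of that list overlapped, at -0.058 to 0.048 in WT and -0.027 to 0.022 in mtor xu015/+. synpo2lb, a Z-disc protein, had 84349, 83034 and 88648 in WT and 96046, 103102 and 102393 in mtor xu015/+ (log2 fold change 0.24 ± 0.065 (SE), adjusted p = 0.485), and tmod4, a muscle tropomodulin, had 135, 158 and 142 in WT and 70.7, 99.4 and 93.9 in mtor xu015/+ (-0.72). mef2ca, a transcription factor of heart muscle, had 5566, 6174 and 5717 in WT and 4526, 4977 and 4607 in mtor xu015/+ (log2 fold change -0.31 ± 0.091 (SE), adjusted p = 0.495). Each of these separated the groups. The natriuretic peptide gene nppa had 55717, 75056 and 79164 in WT and 74035, 54237 and 75167 in mtor xu015/+ and overlapped (-0.045). For channels, kcnq1.1 had 1751, 1699 and 1705 in WT and 1883, 2094 and 2108 in mtor xu015/+ (0.24), kcnj12a 667, 683 and 616 in WT and 858, 860.2 and 731 in mtor xu015/+ (0.32), and ryr1a, a ryanodine receptor of skeletal type, 118, 89.6 and 105 in WT and 55.3, 71.5 and 63.8 in mtor xu015/+ (-0.71). Also in the list were fxyd1 (-0.20) and, in the sarcomere list, myoz1b (0.43) and the thinly counted tnni4b.1 (-1.46).

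Protein folding, stress and redox lists had members on both sides and medians near 0. For cytosolic chaperones 37 of 73 genes were higher (median 8.2e-05, 5 higher and 4 lower at an unadjusted p under 0.05), with hspa13 lower at 356, 363 and 414 in WT and 296, 267 and 237 in mtor xu015/+ (log2 fold change -0.50 ± 0.11 (SE), adjusted p = 0.392) and cct8, a subunit of the TRiC folding ring, higher at 10638, 10317 and 10044 in WT and 12296, 11405 and 12314 in mtor xu015/+ (0.22). hspa12a (-0.41) and the small heat shock gene hspb8 (-0.24) were lower and dnajb2 higher (0.29), all without overlap. For folding in the endoplasmic reticulum 29 of 50 genes were higher (median 0.0082, 2 higher and 1 lower at an unadjusted p under 0.05), with txndc11 (0.40), uggt2 (0.25) and sil1 (-0.24) without overlap. In the ATF4 list 17 of 37 were higher (median -0.028, 1 higher and 1 lower at an unadjusted p under 0.05). There the tRNA ligase genes gars1 and aars1 went apart, at 0.22 and -0.24. Among antioxidant genes 28 of 48 were higher (median 0.034, 1 higher and 3 lower at an unadjusted p under 0.05). nqo1, a quinone reductase, had 275, 320.3 and 329 in WT and 370.2, 394 and 459 in mtor xu015/+ (0.40), whereas gclm, a subunit of the enzyme that starts glutathione synthesis, had -0.33 and gpx3, a glutathione peroxidase, -0.61. Nucleotide synthesis had 16 of 35 genes higher (median -0.0069, 0 higher and 1 lower at an unadjusted p under 0.05), hprt1l being lower (-0.40). FoxO targets had 20 of 37 genes higher (median 0.023, 3 higher and 2 lower at an unadjusted p under 0.05), with bcl6aa lower at 111, 141 and 143 in WT and 79.6, 60.4 and 78.9 in mtor xu015/+ (log2 fold change -0.85 ± 0.20 (SE), adjusted p = 0.415), igfbp1a lower (-0.68) and the ubiquitin ligase gene trim63a higher (0.26). insrb, an insulin receptor gene of that list, was higher with overlap (0.55). Over all genes the share at an unadjusted p under 0.05 was 7.25%. The chaperone and FoxO lists lay above that share and the antioxidant list near it, each on few genes.

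Markers of other cells bounded what the pools held. Endothelial and endocardial markers had 12 of 23 genes higher (median 0.04). At an unadjusted p under 0.05, 3 were higher and 2 lower, beside 3.42% and 3.83% of all genes. Without overlap, 3 were higher and 2 lower, beside 5.84% and 7.18%. Among them, vwf was at 9597, 10439 and 9468 in WT and 12023, 10869 and 15567 in mtor xu015/+ (0.38) and kdrl, the VEGF receptor, at 7937, 8786 and 8451 in WT and 8833, 9436 and 8768 in mtor xu015/+. Epicardial and fibroblast markers were lower in 12 of 18 (median -0.10), although col1a2 overlapped at 4859, 4946 and 5344 in WT and 4534, 4500.0 and 5009 in mtor xu015/+. In that list 1 was higher and 2 lower at an unadjusted p under 0.05, and 1 higher and 3 lower without overlap. The summed levels overlapped between groups for smooth muscle and valve (18568 to 19003 in WT and 17794 to 20711 in mtor xu015/+), skeletal muscle (396182 to 425667 in WT and 386834 to 474885 in mtor xu015/+), lymphocytes (466 to 595 in WT and 464 to 556 in mtor xu015/+), liver (1539.9 to 1612 in WT and 1452 to 1731 in mtor xu015/+) and pancreas or gut (1139 to 1503 in WT and 1069 to 1660.1 in mtor xu015/+). Nerve and Schwann cell markers did not overlap in sum (5928 to 7211 in WT and 5416 to 5612 in mtor xu015/+), with mpz among the genes that were lower. Ovary markers did not overlap in sum either (247 to 278 in WT and 194 to 225 in mtor xu015/+), at low levels, with 8 of 24 above the filter and 5 at 0 in all 6 libraries. Of the liver markers 11 of 26 passed and 5 were at 0. By counts, 6 of 19 smooth muscle and valve markers, 15 of 21 skeletal muscle markers and 5 of 16 lymphocyte markers were higher. For nerve and Schwann cells 10 of 18, for liver 5 of 11, for pancreas or gut 5 of 8 and for ovary 0 of 8 were higher. At an unadjusted p under 0.05, skeletal muscle had 2 higher and 2 lower, and the rest of these lists had 0 higher. Of those, nerve had 3 lower, smooth muscle 2, liver 1, ovary 1, lymphocytes 0 and pancreas or gut 0. Among the highest-level markers of each list, those with overlap were myl7 (-0.079), cmlc1 (0.14), actc1a (-0.013) for cardiomyocytes, acta2 (0.12), notch3 (0.10), abcc9 (0.16) for smooth muscle, cdh5 (-0.14) for endothelium, krt8 (-0.10), podxl (0.018) for epicardium and tbx5b (0.077) for the atrium. For blood and immune cells they were cd74a (0.15), cd74b (0.073), itgae.1 (-0.34), srgn (-0.089), itgb2 (-0.05), cebpa (-0.41), runx3 (0.50), il2rb (-0.081), ccr9a (0.18). For other tissues they were pmp22a (0.078), pmp22b (-0.28), syt1a (-0.23), tnni1b (0.10), acta1b (-0.092), fabp11a (-0.24), g0s2 (-0.97), rbp4 (-0.058), apoa1b (-0.12), tfa (0.085), ahsg1 (0.032), ctrl (-0.29), ctrb1 (0.04), cdx1b (-0.07), h1m (-0.11). Markers without overlap were ckma (0.31) of skeletal muscle and buc (-0.59), ccnb1 (-0.26) of the ovary list. The part that any of these sources has in the lists above was not tested.

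Position in the genome gave a further view. Around mtor itself, 5 of 30 tested genes within 1 Mb had an unadjusted p under 0.05 (16.7%), 8 of 54 within 2 Mb (14.8%), 16 of 123 within 5 Mb (13%) and 22 of 242 within 10 Mb (9.09%), beside 7.25% of all genes. The share declined with distance, and directions were mixed, with 2 genes higher and 4 lower without overlap within 1 Mb. ubap2b had 7297, 6267 and 6521 in WT and 8341, 7623 and 7932 in mtor xu015/+ (log2 fold change 0.25 ± 0.082 (SE), adjusted p = 0.527), and pex10, a peroxisome assembly gene, had 77.5, 79.2 and 72 in WT and 58.6, 55.7 and 49.8 in mtor xu015/+ (-0.48). The other 3 within 1 Mb were si:ch211-196g2.4 (0.44, without overlap), fam160b2 (0.29) and ogg1, a DNA glycosylase (-0.53), both with overlap. Over whole chromosomes the share with an unadjusted p under 0.05 went from 4.9% on chromosome 25 to 10.4% on chromosome 18 in the nuclear genome, with 8.6% on chromosome 8, and was 38.5% among the 13 mitochondrial genes.

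The longest run of neighbours that differed alike lay on chromosome 1, far from mtor. Runs were sought after the values had been seen, among the 474 genes without overlap that differed by 1.5-fold or more, joining those within 100 kb that went the same way. Of 27 runs, the longest held 9 genes and no other held more than 3. The run of 9 spans 58066109 to 58459867 on chromosome 1 (GRCz11), a stretch of 393.8 kb with 22 tested genes, and all 9 were higher in mtor xu015/+. si:dkey-222h21.1 had 129.8, 117 and 114 in WT and 309, 242 and 374 in mtor xu015/+ (log2 fold change 1.36 ± 0.18 (SE), adjusted p = 0.0678), si:dkey-222h21.6 had 93.2, 74.6 and 87.2 in WT and 222.1, 132 and 269 in mtor xu015/+ (1.29), and BX927298.1 had 27.22, 50.5 and 13.1 in WT and 95, 97.5 and 142 in mtor xu015/+ (1.88). si:ch211-15j1.3 had 95.3, 42.5 and 75.2 in WT and 162, 155 and 305 in mtor xu015/+ (1.54). In the Tg(cmlc2:tfeb) libraries the same 4 genes had 67.5, 57.5 and 50.4, 23.1, 14.8 and 24.7, 6.84, 1.74 and 2.24 and 3.42, 3.48 and 0, below every WT library. A gene of the run listed as slc27a1b, a name that another ID outside the run also carries, had 33.5, 52.8 and 25.1 in WT and 137, 83.6 and 107 in mtor xu015/+ (1.55). It is also among the fatty acid oxidation genes counted above as higher at an unadjusted p under 0.05. The ID outside the run was lower with overlap (-0.46). Other genes interleaved with those of the run overlapped, such as si:dkey-222h21.10, so the difference does not cover the whole stretch. Most carry clone names only, their roles are not given here, and reads shared between similar copies could be split among them. Whether the groups carry unlike haplotypes at this place was not tested.

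**Figure D5:**
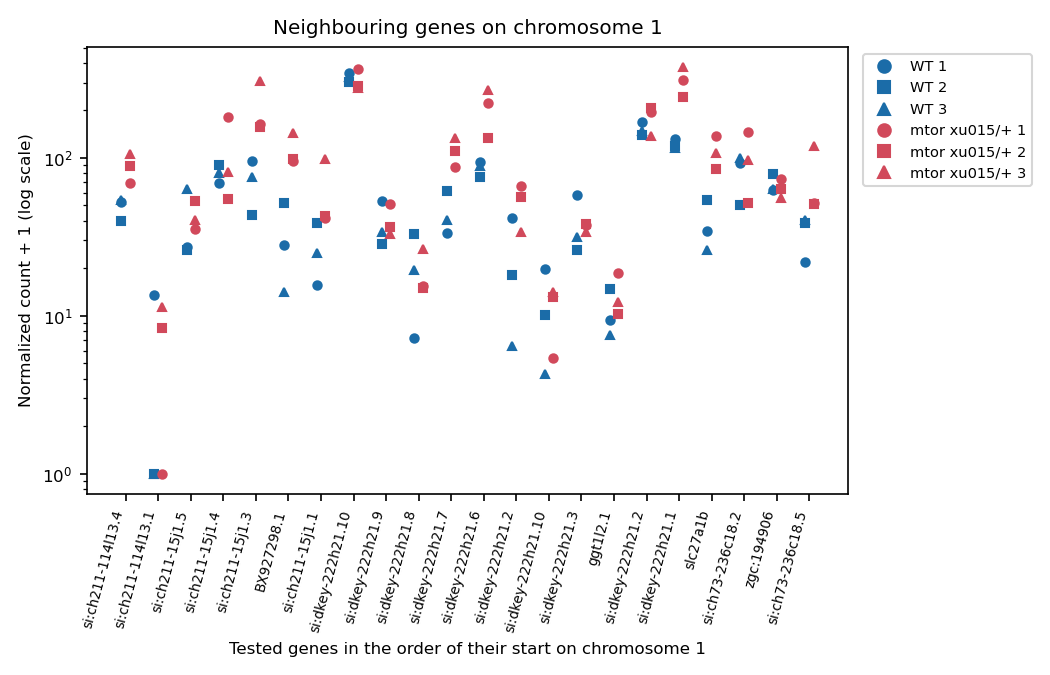
The 22 tested genes of the stretch are in order of their start, with the normalized count plus 1 of each library on a log scale. Red points lie above blue ones without overlap in 9 genes, from si:ch211-114l13.4 to si:ch73-236c18.5, and the genes between them overlap.

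Another place on chromosome 1 held atp1a1a.2 and atp1a1a.3, neighbouring copies of a sodium pump subunit. atp1a1a.2 had 9.42, 10.3 and 14.2 in WT and 56.4, 16.7 and 31.9 in mtor xu015/+ and atp1a1a.3 had 16.7, 27.6 and 12 in WT and 59.7, 38.1 and 48.8 in mtor xu015/+, with 1.71, 0.871 and 2.24 and 2.56, 0 and 1.12 in Tg(cmlc2:tfeb). The run of 3 on chromosome 3 was that of the globins hbba2, hbaa2 and hbae1.3. On chromosome 8, si:ch211-261n11.7 had 263, 209 and 390.4 in WT and 30.9, 32.5 and 49.8 in mtor xu015/+ (log2 fold change -2.92 ± 0.42 (SE), adjusted p = 0.108), and lies far from mtor on that chromosome. nlgn2b, a neuroligin gene on chromosome 10, was named after its values were seen. It was at 37.7, 27.6 and 26.2 in WT and at 0 in all 3 mtor xu015/+ libraries, at least 10.2-fold lower against a floor of 3 counts per library (unadjusted p = 0.00356, adjusted p = 0.451, edgeR). In Tg(cmlc2:tfeb) it was at 0, 0 and 13.4.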

How the data were processed

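RNA from pooled ventricles of mtor xu015/+ and WT zebrafish was analysed as 3 libraries per group. The authors deposited estimated counts per gene, in columns labelled scaledTPM, so gene length may enter them. Among low values (0.5 to 5.5), 58.55% were whole to a tolerance of 0.1. The submitters' notes name bcl2fastq 2.17, Trimmomatic 0.36, STAR 2.5.2b and GRCz11, the paper's methods name TopHat and Cufflinks, and the tool that made the table and its use of strand or multiply mapped reads are not given in the sources used here. Every column was matched to a sample by name.

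Counts were rounded and fitted in R 4.3.3 with edgeR 4.0.16 (filterByExpr, TMM, quasi-likelihood test) over all 9 libraries as group means. P-values are two-sided and adjusted by Benjamini-Hochberg over 21216 genes, and a call needs an adjusted p under 0.05 and 1.5-fold. Fitted folds use edgeR's shrinkage, and a gene at 0 in a group is given against a floor of 3 counts. Intervals and p-values cover the spread between these pools. Each SE is the absolute log2 fold change divided by the square root of the quasi-likelihood F statistic. The spread behind it is estimated over all 9 libraries. The pipeline was tested on simulated data. Alternatives were RLE and upper quartile scaling, DESeq2 1.42.0, limma 3.58.1 (voom), other filters, fewer libraries or genes, a replicate block and leaving out each library. The authors' comparisons were not used.

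Genes were named by rule: mtor, genes past adjustment, the 12 of smallest p in each direction without overlap and with a gene-type name, up to 5 per pathway list, up to 3 per marker list, and genes with an unadjusted p under 0.05 within 1 Mb of mtor. Others are said to be named after their values were seen. The lists and this comparison were chosen with earlier results of these data known, and the skin, atrial, heme and glucocorticoid lists after these values. Gene lists are described by counts and medians, without a test. A gene that the rule would name is not reported here.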

Additional observations from a re-analysis of the deposited data

How the results depend on the processing

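The number of named and placed genes called was 1, and it depended on the setting. It was 32 with DESeq2, 2 without a filter on low counts and 2 at an adjusted p under 0.10, and 0 with limma-voom, with a CPM of at least 1 in 3 libraries, with only the 6 libraries compared, with a replicate block and with only named and placed genes fitted. Without any 1 library it was 0 to 1. The adjusted p of ntn1b ranged from 2.34e-10 (DESeq2) to 0.126 over the settings that kept all libraries compared. The genes without overlap numbered 1841 to 2350 higher and 2193 to 2674 lower when a library was left out, since fewer libraries overlap less. Over all genes, deviations of replicates of the same number were nearly uncorrelated between the groups (0.027, 0.064 and -0.036). These values do not exclude pairing in some genes, and the immediate early list rose from replicate 1 to 3 in both groups. The replicate block gave 1233 genes at an unadjusted p under 0.05 against 1370. Of 213 single genes followed, 194 kept their direction in every setting, and of 49 lists, 22 kept the sign of their median. The log2 fold change of ahsg1 was -0.0092 with the replicate block. Leaving out 1 library turned the direction of the following genes, whose log2 fold change then ranged as given. pmp22a ranged over -0.048 to 0.17, cd74b ranged over -0.028 to 0.19, ccr9a ranged over -0.11 to 0.54, actc1a ranged over -0.037 to 0.0044, ahsg1 ranged over -0.22 to 0.26, ctrb1 ranged over -0.17 to 0.23, il2rb ranged over -0.23 to 0.0054, itgb2 ranged over -0.21 to 0.044, nppa ranged over -0.19 to 0.092, tsc22d3 ranged over -0.40 to 0.26, podxl ranged over -0.033 to 0.071, kcnj19a ranged over -2.55 to 0.078, grn1 ranged over -2.08 to 0.29, myh6 ranged over -1.45 to 0.23, fkbp5 ranged over -0.77 to 0.23, notch3 ranged over -0.0052 to 0.16, rbp4 ranged over -0.15 to 0.063, ddit4 ranged over -1.16 to 0.16, acta1b ranged over -0.24 to 0.028. For these the cause was not tested.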
